A study of Mus musculus with 9 samples.

Results

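The 51 genes described here were those with a mean of at least 2 CPM (read counts per 1000000 counts on genes) in both C/EBPδ-edited genotypes of RAW264.7 macrophages and, in each of them, at least 4 times the wild-type mean plus 0.1 CPM. They were taken from 55487 annotated genes, of which 26804 had at least 1 count in the series and 11015 reached a mean of 2 CPM in both edited genotypes. Cebpa, which encodes C/EBPα, was left out by name. Its mean in the ΔTAD mutant lay under 4 times the wild-type mean plus 0.1 CPM, so it did not meet these limits. With Cebpa not counted, the same level and fold were met by 27 further genes in the knock-out alone and by 45 in the ΔTAD mutant alone. Because these values chose the genes, both differences from wild-type are given below as a description, with no test; only the difference between the edited genotypes, which the choice did not use, was tested.

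RAW264.7 is a macrophage-like mouse cell line, and all cells were grown in IMDM with fetal calf serum and left unstimulated. Total RNA was sequenced after removal of ribosomal RNA in 3 libraries of each genotype, labelled CEBPD wild type, CEBPD KO and CEBPD TAD mutant. Both edited genotypes came from cutting Cebpd on either side of the region for the transactivation domain with CRISPR/Cas9: ΔTAD cells keep the reading frame, and out-of-frame clones served as the knock-out. Edited cells were sorted by GFP, selected with puromycin and expanded from single cells, and the design names 3 independent clones. The study names wild-type clones in other assays, but whether the sequenced wild-type libraries came from cells cloned in this way is not given in the sources used here, so editing and cloning cannot be told apart in a comparison with wild-type. Whether the 3 wild-type libraries were separate cultures is not given either, so their spread may be technical. The study's stimulation assays name fewer clones of each genotype, and the labels give only a number for each library. Between libraries, the chi-square of counts per gene was 2.01 to 2.67 in the knock-out and 3.11 to 4.18 in wild-type. In ΔTAD it was 2.28 for replicates 2 and 3 and 150 with replicate 1. If libraries of a genotype shared a clone, the p-values between the edited genotypes would not cover differences between clones.

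C/EBPδ is a basic leucine zipper transcription factor that binds DNA as a dimer, alone or with other C/EBP family members, and activates transcription through its amino-terminal transactivation domain. It is best known in macrophages as a factor induced by inflammatory stimuli such as lipopolysaccharide. A mutant without the transactivation domain can still bind DNA, whereas a knock-out leaves the sites free for other factors. The comparison of the 2 edited genotypes therefore addresses whether loss of the protein and loss of its activation function leave the cells with the same transcripts.

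The edited gene was counted in every library. Cebpd stood at 6.13, 7.28 and 6.11 CPM in the wild-type libraries, at 5.21, 5.49 and 5.6 CPM in the knock-out and at 4.89, 5.23 and 6.18 CPM in ΔTAD. The deletion removes only part of the transcript, so this level is a weak check of the labels. Cebpa stood at 2.09, 3.76 and 3.27 CPM in wild-type, 16.6, 16.9 and 14.1 CPM in the knock-out and 12.2, 12.1 and 13 CPM in ΔTAD. All levels here and below are CPM scaled by the trimmed mean of M-values (TMM), except where plain CPM is named. Gene counts summed to between 16113306 and 20981829 per library. Of the libraries, ΔTAD replicate 1 stood apart: the ribosomal RNA gene CT010467.1 took 123868 CPM in it against 11473 and 11612 CPM in the other ΔTAD libraries, and its TMM factor was 0.888 against 0.999 to 1.03 in the others. Of the 12 macrophage markers examined, 11 were expressed highly enough to test, and the summed markers lay between 3847 and 4074 CPM in wild-type, 5068 and 5478 CPM in the knock-out and 7609 and 7769 CPM in ΔTAD; Mertk was at or near 0 in all. Most of this difference lay in Lyz2: without it, a sum formed after seeing the data, the markers took 2750 to 2891 CPM, 3062 to 3201 CPM and 3471 to 3529 CPM. In bulk RNA, a change in the number of cells that express a gene and a change in the RNA per cell cannot be told apart.

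Together, the 51 genes took 212 to 229 CPM in the wild-type libraries, 2277 to 2335 CPM in the knock-out and 2322 to 2368 CPM in ΔTAD. Wild-type lay far below both edited genotypes, whose ranges overlapped. Spink5 alone averaged 829 CPM of this sum in the knock-out and 336 CPM in ΔTAD, so similar sums do not mean similar levels gene by gene. In wild-type, 23 of the 51 genes had a mean under 1 CPM and 7 had a mean over 10 CPM; in the knock-out none was under 1 CPM and 25 were over 10 CPM, and in ΔTAD 33 were over 10 CPM. The median log2 fold change over wild-type was 2.99 in the knock-out and 3.22 in ΔTAD, where the median over all 14312 genes tested was 0.00 in both. Of the 14312 genes, 45.2% passed an adjusted p under 0.01 in the knock-out against wild-type, 49.7% passed it in ΔTAD, and 0.356% met the level and fold limits in both genotypes. All 51 passed the filter on low counts, which they could do through the edited libraries. The lowest knock-out library of any of these genes still stood 3.18-fold above the highest wild-type library, and the lowest ΔTAD library 4.01-fold above it. As ratios of the TMM-scaled means with nothing added to wild-type, both gains were at least 8-fold in 22 of the genes and at least 16-fold in 11. The 2 edited genotypes share their wild-type libraries, so a low wild-type value raises both folds of a gene at once.

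**Figure D1:**
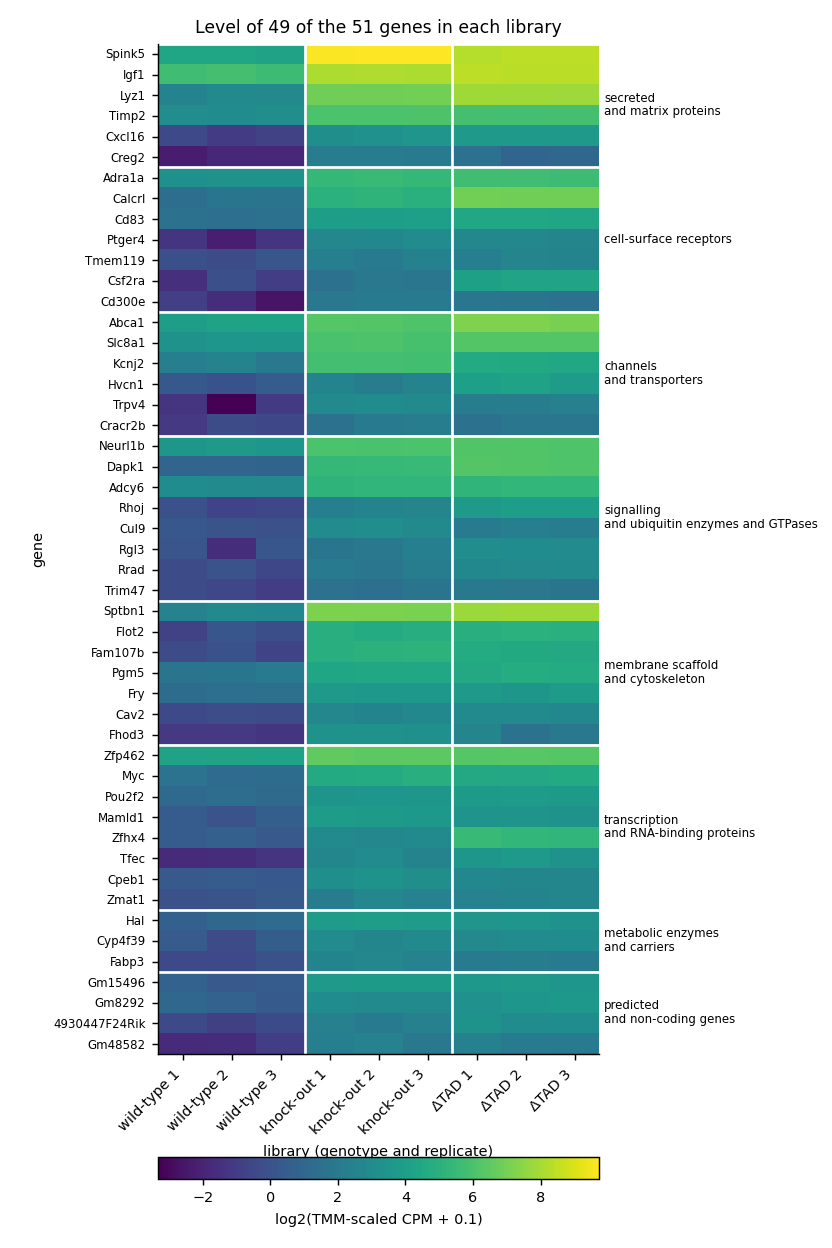
Level of 49 of the 51 genes (rows, grouped by role) in each of the 9 libraries (columns), as log2(TMM-scaled CPM + 0.1) on the colour scale. Every gene is darker in the 3 wild-type libraries than in the 6 edited ones, and the libraries of a genotype look alike.

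The spread between libraries was small in the edited cells. The highest library exceeded the lowest by a median of 1.14-fold in the knock-out and 1.13-fold in ΔTAD, against 1.38-fold in wild-type. A spread of over 2-fold was seen in 7 genes in wild-type, in none in the knock-out and in 1, Fhod3, in ΔTAD. Wild-type spreads rest on few reads: Cd300e had between 1 and 9 counts in a wild-type library, Trpv4 between 0 and 6, Csf2ra between 5 and 14 and Rgl3 between 4 and 20. Creg2 had at most 3 counts in each wild-type library, so its gain is a lower bound against a floor of 3 counts per library, at least 26.0-fold higher in the knock-out and at least 13.3-fold higher in ΔTAD. When the genes were chosen again without the libraries of 1 replicate number, 50 to 52 genes were chosen, 48 or 49 of them among the 51. In the left-out libraries, 44 or 45 of the genes so chosen were again at least 4 times wild-type plus 0.1 CPM in both genotypes, and all were at least 2 times. Most of these genes were already among the 51, so this describes how alike the libraries of a genotype were and is not an independent test.

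The limits themselves were sharp for a few genes, in plain CPM. Closest inside were Zfp462, with a ΔTAD mean 4.00002 times the wild-type mean plus 0.1 CPM, and Cul9 at 4.02 times. Adra1a and Abca1 followed through the knock-out, at 4.19 and 4.21 times, and Creg2 through its ΔTAD level of 2.12 CPM. Just outside, Cebpa apart, were Cxcr4 at 3.998 times in ΔTAD, Clec12a at 3.90 times in the knock-out, 4833415N18Rik at 3.86 times in ΔTAD, Rbm12b1 at 3.84 times in the knock-out and Pmepa1 at 3.71 times in ΔTAD.

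Among the secreted proteins were the 3 genes with the highest levels per kilobase of exon in both edited genotypes, Spink5, Lyz1 and Igf1. Spink5, which encodes a serine protease inhibitor best known from skin and other epithelia, stood at 20.9, 20.9 and 18.5 CPM in the wild-type libraries, 810.1, 849.5 and 827 CPM in the knock-out and 309.6, 349.6 and 349.8 CPM in ΔTAD. The 3 groups did not overlap, with the knock-out highest. Per kilobase of exon, Spink5 had the highest level of the 51 genes in the knock-out, 173 CPM per kilobase, and in ΔTAD it stood at 70.3 CPM per kilobase, behind Lyz1 at 181 CPM per kilobase. Spink5 was the only one of 15 listed epithelial genes with a level to test: Epcam, Cdh1, Krt18, Krt19, Krt14, Cldn3, Cldn4, Ocln and Esrp1 had no count in any library.

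Spink5 was 2.46-fold higher in the knock-out than in ΔTAD (log2 fold change of knock-out over ΔTAD 1.30 ± 0.04 SE, adjusted p = 2.9e-17 by the quasi-likelihood test of edgeR with Benjamini-Hochberg adjustment). Igf1, insulin-like growth factor, was already expressed in wild-type, at 53.2 ± 4.62 CPM (SD, n = 3), and stood at 285 ± 8.07 CPM in the knock-out and 334 ± 7.42 CPM in ΔTAD. Its receptor gene Igf1r was at or near 0 in every group, at most 0.0233 CPM on average. Igf1 was 1.17-fold higher in ΔTAD than in the knock-out (log2 fold change of knock-out over ΔTAD -0.23 ± 0.04 SE, adjusted p = 1.3e-04 by the quasi-likelihood test of edgeR with Benjamini-Hochberg adjustment), a call lost in 1 of 15 alternative settings.

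Lyz1, a lysozyme that cleaves bacterial cell walls, stood at 5.58, 7.28 and 7.02 CPM in wild-type, 121, 118 and 125 CPM in the knock-out and 232, 231 and 222 CPM in ΔTAD. The groups were far apart, and ΔTAD held 1.88 times the knock-out mean (log2 fold change of knock-out over ΔTAD -0.91 ± 0.04 SE, adjusted p = 7.2e-16 by the quasi-likelihood test of edgeR with Benjamini-Hochberg adjustment). Lyz1 and its near-identical neighbour Lyz2, the lysozyme of macrophages, can share reads, so the Lyz1 count is uncertain. Lyz1 took 0.469% to 0.635% of the reads of both genes in the wild-type libraries and 5.14% to 5.57% in the edited ones. The part of shared reads in the Lyz1 level was not tested. Lyz2 itself averaged 1166 CPM in wild-type, 2112 CPM in the knock-out and 4187 CPM in ΔTAD.

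Timp2, an inhibitor of matrix metalloproteinases, was slightly higher in the knock-out than in ΔTAD: it averaged 65.9 ± 1.82 CPM in the knock-out and 58.6 ± 0.913 CPM in ΔTAD (SD, n = 3), from 8.35 ± 0.248 CPM in wild-type. This call was lost in 2 of 15 alternative settings. Timp1, Timp3 and Timp4 averaged at most 0.112 CPM in any genotype. Cxcl16, a membrane-bound chemokine that also takes up oxidised lipoprotein, averaged 0.512 CPM in wild-type, 9.92 CPM in the knock-out and 13.0 CPM in ΔTAD, and Creg2, a secreted glycoprotein, averaged 0.151, 4.34 and 2.23 CPM.

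**Figure D2:**
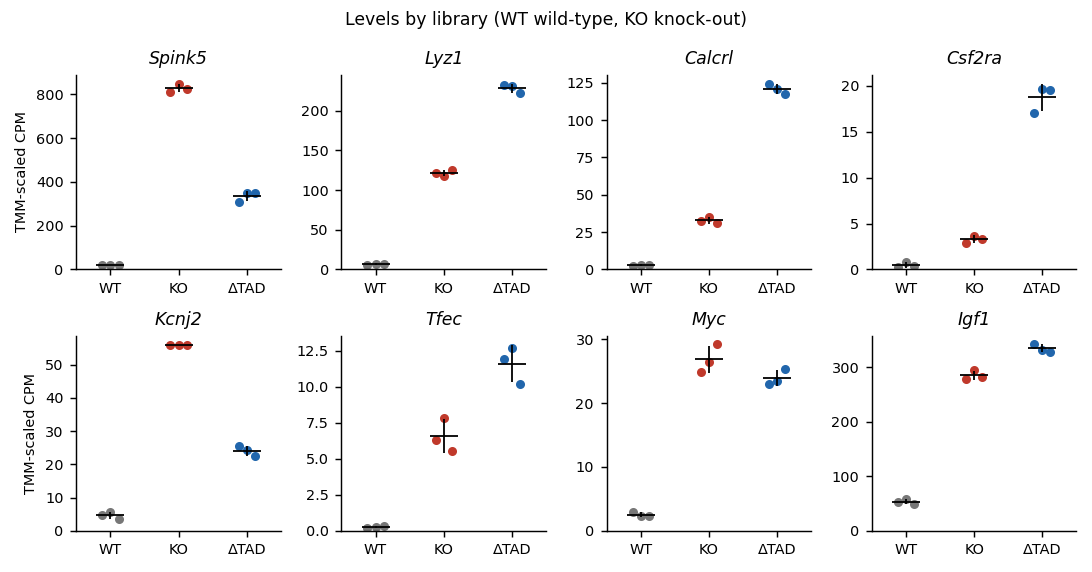
TMM-scaled CPM of 8 of the genes in each library (points), with the mean and SD (n = 3) of each genotype in black; each panel starts at 0 and has its own scale. Spink5 and Kcnj2 are highest in the knock-out, Lyz1, Calcrl, Csf2ra and Tfec are highest in ΔTAD, the knock-out and ΔTAD points overlap for Myc, and those of Igf1 lie close together.

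Among cell-surface receptors, 4 of 7 were higher in ΔTAD than in the knock-out and none was higher in the knock-out, where 19.1% and 13.9% of all 14312 genes tested were. The call of 1 of the 4, Adra1a, was lost in 1 of 15 alternative settings. Calcrl, which pairs with a RAMP protein to form the receptor for calcitonin gene-related peptide or adrenomedullin, stood at 2.54, 3.24 and 3.15 CPM in wild-type, 32.8, 35.4 and 30.9 CPM in the knock-out and 124, 121 and 117 CPM in ΔTAD. The genotypes formed 3 separate levels, and ΔTAD was 3.66-fold above the knock-out (log2 fold change of knock-out over ΔTAD -1.87 ± 0.05 SE, adjusted p = 5.8e-20 by the quasi-likelihood test of edgeR with Benjamini-Hochberg adjustment). The partner genes stayed low: Ramp2 averaged 0.510, 0.314 and 0.600 CPM in wild-type, knock-out and ΔTAD, and Ramp1 and Ramp3 were at or near 0.

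Csf2ra, the ligand-binding chain of the GM-CSF receptor, stood at 0.249, 0.809 and 0.423 CPM in wild-type, 2.9, 3.68 and 3.34 CPM in the knock-out and 17, 19.6 and 19.6 CPM in ΔTAD. All ΔTAD libraries lay well above all knock-out libraries, and the means differed 5.73-fold (log2 fold change of knock-out over ΔTAD -2.52 ± 0.12 SE, adjusted p = 4.3e-14 by the quasi-likelihood test of edgeR with Benjamini-Hochberg adjustment). Csf2rb, the signalling chain of the same receptor, averaged 54.7, 52.5 and 50.5 CPM in the 3 genotypes and passed the test in neither comparison with wild-type. The α1A adrenergic receptor gene Adra1a averaged 10.0 CPM in wild-type, 42.7 CPM in the knock-out and 51.6 CPM in ΔTAD, while Adra1b and Adra1d had no counts. Cd83, an immunoglobulin-family surface protein of activated antigen-presenting cells, averaged 2.76, 15.8 and 21.8 CPM.

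Ptger4, a prostaglandin E receptor that raises cyclic AMP, stood at 0.299, 0.116 and 0.302 CPM in wild-type, 6.58, 6.7 and 7.75 CPM in the knock-out and 6.57, 6.48 and 6.08 CPM in ΔTAD. Every knock-out library lay just above every ΔTAD library, yet the difference did not pass: the log2 difference was 0.14, with a 95% interval of -0.10 to 0.38. Ptger2 and Ptger3 had no counts, and Ptger1 averaged between 2.05 and 2.39 CPM. Tmem119, a membrane protein used as a microglia marker, averaged 0.840, 4.76 and 5.64 CPM, and Cd300e, an activating receptor of myeloid cells, 0.247, 3.86 and 3.16 CPM; neither passed between the edited genotypes.

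Abca1, which exports cholesterol to apolipoproteins, was 1 of 6 channel and transporter genes. It stood at 15, 18.4 and 19.1 CPM in wild-type, 77.8, 76.1 and 71.4 CPM in the knock-out and 146, 145 and 133 CPM in ΔTAD. The groups were separate, and ΔTAD was 1.88-fold above the knock-out (log2 fold change of knock-out over ΔTAD -0.91 ± 0.05 SE, adjusted p = 6.5e-14 by the quasi-likelihood test of edgeR with Benjamini-Hochberg adjustment). Slc8a1, a sodium-calcium exchanger, averaged 11.2, 64.1 and 75.8 CPM.

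Kcnj2, an inward-rectifier potassium channel that sets the resting potential, stood at 4.73, 5.55 and 3.63 CPM in wild-type, 55.8, 56 and 55.8 CPM in the knock-out and 25.4, 24.4 and 22.4 CPM in ΔTAD. The knock-out libraries were nearly equal and all above ΔTAD, by 2.33-fold on average (log2 fold change of knock-out over ΔTAD 1.22 ± 0.07 SE, adjusted p = 2.3e-13 by the quasi-likelihood test of edgeR with Benjamini-Hochberg adjustment). Hvcn1, the voltage-gated proton channel that supports the respiratory burst, had the opposite order: 5.9, 4.59 and 5.6 CPM in the knock-out and 16.6, 18.3 and 14.9 CPM in ΔTAD, from 1.1, 0.867 and 1.27 CPM in wild-type. ΔTAD was 3.08-fold above the knock-out (log2 fold change of knock-out over ΔTAD -1.62 ± 0.11 SE, adjusted p = 2.1e-11 by the quasi-likelihood test of edgeR with Benjamini-Hochberg adjustment). The calcium-permeable channel Trpv4 averaged 0.221, 7.58 and 4.66 CPM and was higher in the knock-out, and Cracr2b, a regulator of store-operated calcium entry, averaged 0.549, 3.88 and 3.23 CPM and did not pass.

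The genes of the membrane scaffold and cytoskeleton included some of the largest gains. Sptbn1, a β-spectrin of the membrane skeleton, stood at 5.38, 7.4 and 6.83 CPM in wild-type, 143, 141 and 136 CPM in the knock-out and 219, 234 and 231 CPM in ΔTAD, and the 3 groups did not overlap. Its difference between the edited genotypes was 1.63-fold in favour of ΔTAD (log2 fold change of knock-out over ΔTAD -0.71 ± 0.04 SE, adjusted p = 5.5e-13 by the quasi-likelihood test of edgeR with Benjamini-Hochberg adjustment). Flot2, a scaffold protein of lipid rafts, stood at 0.498, 1.04 and 0.786 CPM in wild-type, 29, 26.5 and 28 CPM in the knock-out and 30.4, 32 and 30.8 CPM in ΔTAD. Both edited levels were far above wild-type, 35.9-fold and 40.1-fold on average, and their difference did not pass: the log2 difference was -0.16, with a 95% interval of -0.29 to -0.03.

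Fam107b had the largest gain in the knock-out, 46.4-fold, from 0.697, 0.867 and 0.544 CPM in the wild-type libraries to 30.2, 33 and 34.7 CPM, and stood at 25.9, 24.4 and 23.8 CPM in ΔTAD. It was 1.32-fold higher in the knock-out than in ΔTAD (log2 fold change of knock-out over ΔTAD 0.41 ± 0.07 SE, adjusted p = 3.0e-05 by the quasi-likelihood test of edgeR with Benjamini-Hochberg adjustment). Fhod3, a formin that assembles actin filaments, stood at 0.349, 0.347 and 0.302 CPM in wild-type, 9.85, 10.3 and 9.34 CPM in the knock-out and 6.01, 2.97 and 3.71 CPM in ΔTAD. Here ΔTAD replicate 1 lay above the other ΔTAD libraries but below every knock-out library (log2 fold change of knock-out over ΔTAD 1.27 ± 0.16 SE, adjusted p = 5.0e-07 by the quasi-likelihood test of edgeR with Benjamini-Hochberg adjustment). Cav2, a caveolin, averaged 0.708, 6.35 and 7.12 CPM, while Cav1, with which it forms caveolae, had at most 1 count in a library. Pgm5, a protein of cell-cell and cell-matrix junctions related to phosphoglucomutase, averaged 3.49, 22.1 and 25.3 CPM, and Fry, a large scaffold protein, 2.55, 12.6 and 13.5 CPM; Cav2, Pgm5 and Fry did not pass between the edited genotypes.

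Of the signalling and ubiquitin enzymes and GTPases, 6 of 9 were higher in ΔTAD and 1 in the knock-out, against 19.1% and 13.9% of all genes tested; 1 of the 6, Neurl1b, kept its call in few of the alternatives. Dapk1, a calcium/calmodulin-regulated kinase linked to cell death and autophagy, stood at 1.84, 1.79 and 1.75 CPM in wild-type, 41.5, 42.4 and 43.6 CPM in the knock-out and 75.2, 71.9 and 71.4 CPM in ΔTAD. The libraries of each genotype were tight, and ΔTAD was 1.71-fold above the knock-out (log2 fold change of knock-out over ΔTAD -0.77 ± 0.05 SE, adjusted p = 1.4e-12 by the quasi-likelihood test of edgeR with Benjamini-Hochberg adjustment). Gm48582, annotated inside Dapk1 on the same strand, averaged 0.285, 4.69 and 4.49 CPM; reads from it and from unspliced Dapk1 RNA cannot be told apart, so both genes are best read as 1 locus.

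Adcy6, an adenylyl cyclase, averaged 7.33, 37.5 and 38.9 CPM, with overlapping knock-out and ΔTAD libraries and a 95% interval of the log2 difference of -0.17 to 0.05. The ubiquitin ligase gene Neurl1b averaged 12.1, 64.9 and 71.6 CPM, and its small difference between the edited genotypes failed in 11 of the 15 alternatives tried. Rhoj, a small GTPase, stood at 0.847, 0.52 and 0.605 CPM in wild-type, 4.85, 5.73 and 6.11 CPM in the knock-out and 12.6, 16.1 and 15.2 CPM in ΔTAD, 2.66-fold higher in ΔTAD than in the knock-out (log2 fold change of knock-out over ΔTAD -1.41 ± 0.11 SE, adjusted p = 5.2e-10 by the quasi-likelihood test of edgeR with Benjamini-Hochberg adjustment). Rgl3, an activator of Ral GTPases, stood at 3.27, 3.62 and 4.81 CPM in the knock-out and 8.45, 8.11 and 7.7 CPM in ΔTAD, from 0.996, 0.231 and 1.03 CPM in wild-type. The ΔTAD libraries were all above the knock-out, by 2.07-fold on average (log2 fold change of knock-out over ΔTAD -1.05 ± 0.16 SE, adjusted p = 1.6e-05 by the quasi-likelihood test of edgeR with Benjamini-Hochberg adjustment). Cul9, a cullin scaffold of ubiquitin ligases, was 1.76-fold higher in the knock-out, at 7.85, 8.45 and 7.25 CPM, than in ΔTAD, at 4.19, 4.7 and 4.37 CPM (log2 fold change of knock-out over ΔTAD 0.82 ± 0.12 SE, adjusted p = 7.5e-06 by the quasi-likelihood test of edgeR with Benjamini-Hochberg adjustment). The small GTPase gene Rrad averaged 0.742, 3.88 and 6.95 CPM, and the ubiquitin ligase gene Trim47 0.566, 2.85 and 3.52 CPM.

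Of 8 genes for transcription factors and RNA-binding proteins, 3 were higher in the knock-out, against 13.9% of all genes tested, 3 in ΔTAD, against 19.1%, and 2 passed in neither direction. Of these calls, that of Pou2f2 was lost in 8 of the 15 alternatives, that of Mamld1 in 5 and that of Zfp462 in 1. Myc, the growth-promoting transcription factor, stood at 2.99, 2.25 and 2.36 CPM in wild-type, 25, 26.5 and 29.2 CPM in the knock-out and 23.1, 23.5 and 25.4 CPM in ΔTAD. The edited genotypes overlapped, with a log2 difference of 0.16 and a 95% interval of 0.02 to 0.30. Mycn, which encodes the related N-Myc, averaged 714 CPM in wild-type, 354 CPM in the knock-out and 413 CPM in ΔTAD. Mycn fell by 1.01 on the log2 scale in the knock-out and by 0.79 in ΔTAD, with adjusted p = 1.2e-17 and 1.1e-15 by the quasi-likelihood test of edgeR with Benjamini-Hochberg adjustment.

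Zfhx4, a large zinc-finger homeobox protein, had the largest difference between the edited genotypes. It stood at 1.29, 1.5 and 1.15 CPM in wild-type, 7.27, 6.4 and 7.25 CPM in the knock-out and 44.9, 39.7 and 38.9 CPM in ΔTAD, so that ΔTAD was 5.86-fold above the knock-out (log2 fold change of knock-out over ΔTAD -2.55 ± 0.08 SE, adjusted p = 9.8e-18 by the quasi-likelihood test of edgeR with Benjamini-Hochberg adjustment). Tfec, a member of the MiT/TFE family of lysosome and macrophage gene regulators, stood at 0.199, 0.231 and 0.302 CPM in wild-type, 6.32, 7.85 and 5.55 CPM in the knock-out and 11.9, 12.7 and 10.2 CPM in ΔTAD, means 26.9-fold and 47.5-fold above wild-type (log2 fold change of knock-out over ΔTAD -0.82 ± 0.12 SE, adjusted p = 6.0e-06 by the quasi-likelihood test of edgeR with Benjamini-Hochberg adjustment). The zinc-finger gene Zfp462 averaged 18.5, 89.4 and 79.1 CPM, and the B cell and macrophage factor gene Pou2f2 2.27, 11.5 and 14.1 CPM. Mamld1, a transcriptional coactivator gene, averaged 1.22, 13.4 and 10.7 CPM, Cpeb1, which controls polyadenylation and translation of messenger RNA, 1.17, 9.33 and 6.44 CPM, and Zmat1 0.974, 5.40 and 5.80 CPM.

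Of the enzymes and carriers, Hal, histidine ammonia-lyase, averaged 1.92, 14.6 and 10.9 CPM and Fabp3, a fatty acid-binding protein, 0.710, 5.88 and 4.19 CPM; both were higher in the knock-out than in ΔTAD, the call of Fabp3 being lost in 4 of the 15 alternatives. Cyp4f39, a cytochrome P450 that hydroxylates fatty acids, averaged 1.09, 7.08 and 7.53 CPM and did not pass. The other members were annotated as non-coding: Gm15496, a transcript antisense to Slc7a14, averaged 1.34, 13.3 and 12.4 CPM, the processed pseudogene Gm8292 1.59, 7.55 and 11.2 CPM and 4930447F24Rik 0.592, 4.75 and 8.65 CPM. Slc7a14 itself averaged at most 0.435 CPM. The opposite-strand gene Bsn, which 4930447F24Rik overlaps, averaged 9.69, 17.9 and 21.1 CPM. The strand setting of the counting is not given, and the part of shared reads in the 4930447F24Rik level was not tested.

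**Figure D3:**
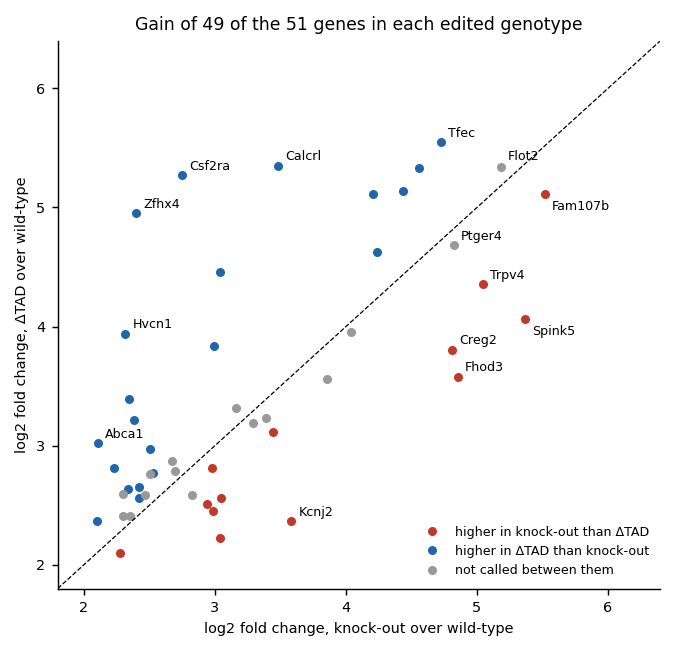
Log2 fold change over wild-type of 49 of the 51 genes in the knock-out (horizontal axis) and in ΔTAD (vertical axis); the dashed line marks equal gains, and colours show the test between the edited genotypes. All points lie above 2 on both axes, which the choice of genes fixed and the shared wild-type libraries favour; Csf2ra, Zfhx4 and Calcrl lie far above the line and Spink5, Fhod3 and Kcnj2 below it.

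Between the edited genotypes, 36 of the 51 genes passed an adjusted p under 0.01 by the quasi-likelihood test of edgeR with Benjamini-Hochberg adjustment over all 14312 genes, where 33.0% of all genes passed. Of these, 13 were higher in the knock-out, against 13.9% of all genes, and 23 were higher in ΔTAD, against 19.1% of all genes. The share of calls also depends on read depth per gene, for which these shares were not matched. A call together with a change of at least 2-fold was made for 10 genes, 3 higher in the knock-out and 7 in ΔTAD, against 3.93% of all genes. The knock-out and ΔTAD libraries did not overlap in 41 genes, with the knock-out above in 15, against 23.2% of all genes, and ΔTAD above in 26, against 29.6%. Without ΔTAD replicate 1, the library with the high ribosomal RNA, 13 genes were higher in the knock-out and 21 in ΔTAD. The median absolute log2 difference was 0.43 over the 51 genes and 0.18 over all genes tested.

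Among the largest differences in favour of ΔTAD were those of Zfhx4, Csf2ra, Calcrl and Hvcn1, and the 5 largest in favour of the knock-out were those of Spink5, Fhod3, Kcnj2, Creg2 and Cul9. By the choice of genes, those that passed were gained in both genotypes: for Zfhx4, the lower of both gains was 5.30-fold over wild-type, and for Kcnj2 it was 5.2-fold. Of the 15 genes that did not pass, 10 had 95% intervals that reached no further than 0.4 on the log2 scale in either direction. Without the TMM scaling, by total gene counts alone, 17 genes were higher in ΔTAD and 13 in the knock-out. All of the 10 genes with a change of at least 2-fold kept their call in every alternative tried.

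**Figure D4:**
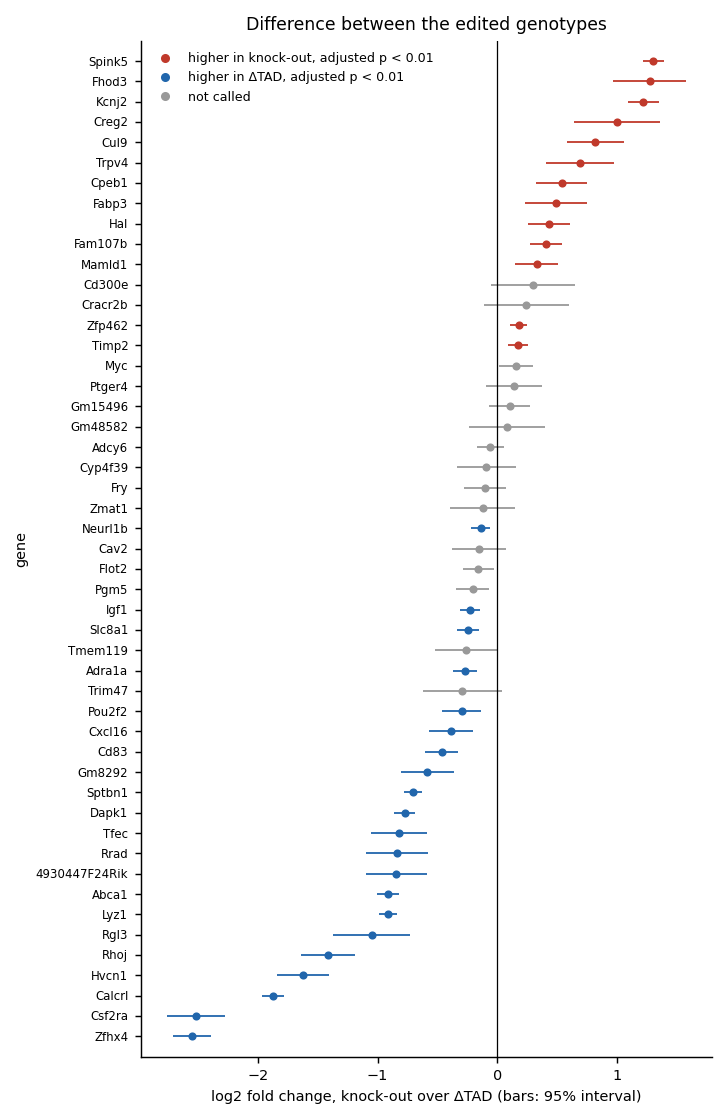
Log2 fold change of the knock-out over ΔTAD for 49 of the 51 genes (points), with bars for the 95% interval; colours show the direction of calls at an adjusted p under 0.01. The genes called higher in ΔTAD range from Zfhx4 (-2.55) to Neurl1b (-0.14) and those called higher in the knock-out from Timp2 (0.17) to Spink5 (1.30), with genes that were not called among the smaller differences of each.

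For 23 of the genes, close relatives and partners were listed after the 51 genes were known: 87 genes in all, of which 39 had enough counts to test and 48 had not. Between knock-out and wild-type, 15 of the 39 were higher and 8 lower in the knock-out, where 22.8% and 22.4% of all genes tested were. In ΔTAD, 19 were higher and 7 lower, against 26.3% and 23.4% of all genes tested. The median log2 fold change of the relatives was 0.14 in the knock-out and 0.21 in ΔTAD. Members of a family differed widely: Flot1 averaged 7.37, 8.20 and 9.46 CPM beside the gain of Flot2, and Tfe3 77.1, 75.9 and 80 CPM beside that of Tfec.

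Some relatives moved in the same direction as the gained gene. Abcg1, which also exports cholesterol, averaged 61.9 CPM in wild-type, 164 CPM in the knock-out and 203 CPM in ΔTAD, and passed in both comparisons with log2 fold changes of 1.41 and 1.72. Lyz2 passed with 0.86 and 1.84, Mitf with 0.96 and 0.46, and Cd300a, an inhibitory receptor beside Cd300e, with 0.99 and 1.58. Other relatives fell: besides Mycn, Fabp4 averaged 9.31 CPM in wild-type and fell to 3.10 CPM in the knock-out and 2.03 CPM in ΔTAD, while Fabp3 was gained. Igf2r, which carries lysosomal enzymes and clears a related growth factor, averaged 784 CPM in wild-type, 1479 CPM in the knock-out and 819 CPM in ΔTAD and passed only in the knock-out; the difference between the edited genotypes passed as well (log2 fold change 0.85; adjusted p = 3.5e-17 by the quasi-likelihood test of edgeR with Benjamini-Hochberg adjustment).

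**Figure D5:**
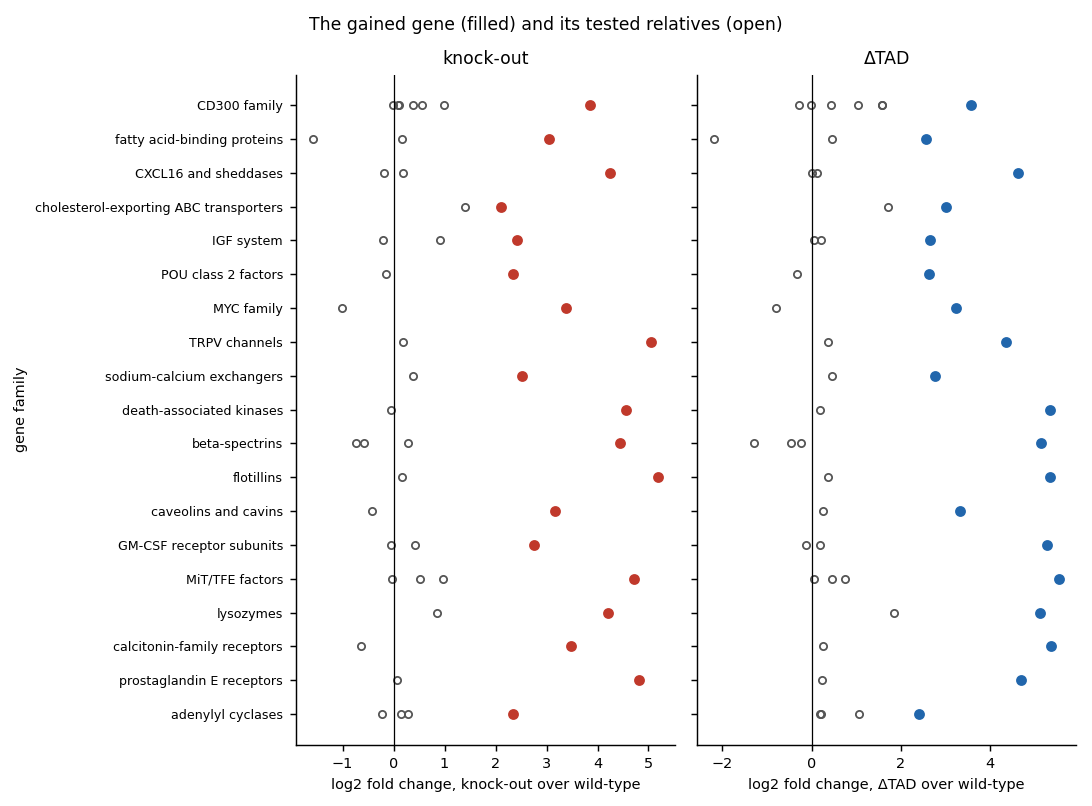
Log2 fold change over wild-type in the knock-out (left) and in ΔTAD (right) of the gained gene of each family (filled) and of its relatives with enough counts to test (open), for 19 of the families that had such relatives. The filled points lie above 2 because the genes were chosen so, and the open points lie between -2.18 and 1.84.

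The 51 genes were spread over the genome. They lay on every chromosome from 1 to 19 but 16, and on X; chromosome 11 held 7 of them (Sptbn1, Timp2, Flot2, Kcnj2, Cxcl16, Cd300e and Trim47), 13.7% of the genes where it holds 7.66% of all genes tested. Chromosome 17, with Neurl1b, Slc8a1, Cyp4f39 and Cul9, had a median log2 fold change over all its tested genes of 0.48 in the knock-out and 0.50 in ΔTAD. Chromosome 12, with Rhoj, had medians of -0.52 and -0.54, and the medians of the other chromosomes lay at most 0.06 from 0. The part of these chromosome-wide shifts in the gains of the 5 genes was not tested.

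Only 3 pairs of the genes lay within 1 Mb of each other: Dapk1 with Gm48582, Tfec with Cav2 at a distance of 383 kb on chromosome 6, and Tmem119 with Trpv4 at 822 kb on chromosome 5. Of the 628 other tested genes within 500 kb of any of the 51, 22.1% were called higher in both edited genotypes, where 17.3% of all genes tested were, and 3.03% were raised at least 2-fold in both, where 2.53% of all were. On chromosome 17, with its shifted median, 62.2% of 74 neighbours were called higher in both. Without chromosome 17, which was left out after seeing the data, the shares were 16.8% of 554 neighbours and 15.1% of all genes tested. The genes were long, with a median exon length of 4785 bases against 3662 over all genes tested and a median span of 37527 bases against 15574. Of the 51, 47 or 92.2% were protein-coding, against 77.0% of all genes tested, and the lengths were not matched for gene type.

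Promoters were examined because C/EBP factors bind CCAAT-like sites and sites of the form TTGCNNAA, where N is any base. RefSeq (GRCm38.p6) promoter windows, 250 bases before to 50 after the start, were matched for 34 of the 51 genes, 37 promoters in all. CCAAT, on either strand, was present in 35.1% of these promoters, against 38.1% of the promoters of all tested genes and 37.4% of all promoters. TTGCNNAA, on either strand, was present in 5 promoters or 13.5%, against 8.33% and 10.8%, and its perfect palindrome TTGCGCAA in none, against 0.308% and 0.183%. The TATA-box letters TATAAA were present in 13.5%, against 6.85% and 13.6%. The median number of CpG dinucleotides was 18, against 21 for tested genes and 7 for all promoters. GAGGAA, the core letters of many sites of the macrophage factor PU.1, was present in 21.6%, against 26.8% and 28.3%, and TGANTCA, the AP-1 site, in 10.8%, against 5.00% and 7.81%.

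Both CCAAT and TTGCNNAA were found in 4 promoters, 10.8%, against 3.06% for tested genes and 3.53% for all. They are shown, as the members whose upstream 250 bases hold the letters of both sites, 5′ to 3′ on the strand of the gene, with the matches on either strand in capitals; a match is a description of the sequence and not a binding site. All are from RefSeq GRCm38.p6: Cav2 at chr6:17280935-17281184 on the plus strand, Hal at chr10:93488518-93488767 on the plus strand, Lyz1 at chr10:117292869-117293118 on the minus strand and Zmat1 at chrX:135009210-135009459 on the minus strand.
Cav2: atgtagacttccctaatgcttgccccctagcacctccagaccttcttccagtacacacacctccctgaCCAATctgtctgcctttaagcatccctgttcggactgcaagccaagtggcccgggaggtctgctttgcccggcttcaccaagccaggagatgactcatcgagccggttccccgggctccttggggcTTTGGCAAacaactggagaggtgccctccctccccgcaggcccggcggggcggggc
Hal: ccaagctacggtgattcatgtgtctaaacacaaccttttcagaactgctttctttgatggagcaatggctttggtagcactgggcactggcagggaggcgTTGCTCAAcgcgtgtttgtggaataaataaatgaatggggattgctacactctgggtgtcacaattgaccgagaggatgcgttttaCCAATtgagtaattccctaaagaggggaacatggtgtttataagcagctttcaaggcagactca
Lyz1: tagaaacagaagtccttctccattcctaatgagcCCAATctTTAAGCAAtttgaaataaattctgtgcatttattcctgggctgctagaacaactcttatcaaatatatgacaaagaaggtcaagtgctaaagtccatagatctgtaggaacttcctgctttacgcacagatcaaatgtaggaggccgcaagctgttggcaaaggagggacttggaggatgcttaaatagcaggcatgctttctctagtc
Zmat1: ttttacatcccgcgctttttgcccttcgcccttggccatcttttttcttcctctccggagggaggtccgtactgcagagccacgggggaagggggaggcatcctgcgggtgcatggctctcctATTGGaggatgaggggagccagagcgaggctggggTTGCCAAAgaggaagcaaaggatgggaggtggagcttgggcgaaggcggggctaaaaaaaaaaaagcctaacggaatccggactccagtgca
The letters of TTGCNNAA lay 56 bases before the start in Cav2, 150 in Hal, 209 in Lyz1 and 92 in Zmat1, and those of CCAAT 182, 64, 216 and 127 bases before it. In these 4 genes the gains were 8.97-fold and 10.1-fold for Cav2 in the knock-out and ΔTAD, 7.62-fold and 5.66-fold for Hal, 18.3-fold and 34.5-fold for Lyz1 and 5.55-fold and 5.96-fold for Zmat1, within the range of the other genes. Between the edited genotypes, Hal was higher in the knock-out and Lyz1 in ΔTAD, and Cav2 and Zmat1 did not pass.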

How the data were processed

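RNA from 9 libraries, 3 of each genotype, was analysed from the deposited per-library gene counts. According to the methods and the submitters' processing notes, the authors prepared the libraries with KAPA RNA HyperPrep with RiboErase, sequenced them from a single end, trimmed with Trimmomatic, used HISAT2 for alignment to GRCm38 and obtained counts per Ensembl gene with HTSeq; the strand setting of the counting is not given in the sources used here. The deposited counts are whole numbers that are not normalized, and 46.7% to 53.2% of each file's total lay on genes; the 5 tally lines of each file (no feature, ambiguous, low quality, not aligned, not unique) were left out.

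The 51 genes were found from plain CPM, and levels are CPM on TMM-scaled library sizes. Genes were named from GENCODE M21 (GRCm38), which held all 51. Log2 fold changes, standard errors and p-values came from edgeR 4.0.16 in R 4.3.3 (TMM, filterByExpr with a minimum count of 10, quasi-likelihood test, prior count 0.125, 1 mean per genotype over all 9 libraries, Benjamini-Hochberg over 14312 genes, adjusted p under 0.01, the study's threshold). The 95% intervals are normal intervals from the standard errors, not adjusted for the number of genes. The test was checked on simulated data. Alternatives were other scalings, DESeq2 1.42.0, other filters and limits, the replicate number as a block, and leaving out libraries. The members, role groups, gene families, gene lists and motifs were chosen with earlier results of these data known. Genes named in detail were the protein-coding members with the highest levels, the largest gains and differences, those nearest the limits, those in a gene list and those beside another member. Of the 51 genes, 2 are counted in every total but are not reported here by name or drawn.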

Additional observations from a re-analysis of the deposited data

How the results depend on the processing

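At 2-fold in place of 4-fold over the wild-type mean plus 0.1 CPM, in plain CPM, 208 genes met the limits in both edited genotypes, and at 8-fold 18 did. The other settings gave 35 to 54 genes, and leaving out libraries gave 49 to 53. The number higher in the knock-out than in ΔTAD was 10 to 13 without 1 of the libraries, and the number higher in ΔTAD 20 to 23. Requiring a 2-fold change in addition left 3 and 7. Library size alone gave 13 and 17, and the DESeq2 Wald test 11 and 20. The median log2 fold change over wild-type stayed between 2.87 and 3.0 in the knock-out and between 3.10 and 3.25 in ΔTAD. Of the 36 calls, 26 stood in all 15 alternatives; Adra1a, Cxcl16, Fabp3, Igf1, Mamld1, Neurl1b, Pou2f2, Slc8a1, Timp2 and Zfp462 failed in at least 1, and the cause was not tested. Among genes without a call, the log2 difference changed sign for Adcy6 by library size alone (0.013), for Zmat1 without knock-out replicate 1 (0.011; range without 1 library -0.25 to 0.011) and for Gm48582 without knock-out replicate 2 (-0.033) or ΔTAD replicate 3 (-0.0083; range -0.033 to 0.22). With the replicate number as a block, 13 and 22 genes passed, Neurl1b being lost. Same-numbered libraries correlated between -0.07 and 0.02 in their deviations from the genotype means. These values cannot show whether same-numbered libraries were handled together, and the labels give only the numbers. Precision of the gains differed between genes. In the knock-out, the standard error of the log2 gain was 0.32 for Creg2, with at most 3 wild-type counts per library. It was 0.05 for Igf1, with 813 to 1050.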

Other observations

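Besides Spink5, none of the 51 genes was in a list of C/EBP family, cell-type, imprinted, germline, stress or C/EBP-linked genes. In the C/EBP family, besides Cebpa, Cebpe averaged 8.39 CPM in wild-type, 8.73 CPM in the knock-out and 18.4 CPM in ΔTAD, Cebpg 48.6, 64.9 and 58.4 CPM, Cebpz 202, 222 and 240.4 CPM, and Cebpb 54.3, 52.8 and 50.1 CPM. Of the 6 tested, 3 were called higher than wild-type in the knock-out and 4 in ΔTAD, and none lower. Over all 14312 genes tested, 22.8% were called higher and 22.4% lower in the knock-out, and 26.3% and 23.4% in ΔTAD. These shares are the background of each list count below and were not matched for read depth per gene. Of the 11 macrophage markers tested, 8 were called higher and 1 lower in the knock-out, and 9 higher and 1 lower in ΔTAD. Fcgr1, an Fc receptor gene, was the marker that fell, from 39.4 CPM to 17.8 CPM in the knock-out and 28.9 CPM in ΔTAD.

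Of 10 tested secreted and metabolic genes linked to C/EBP factors, 5 were higher and 5 lower in the knock-out and 4 higher and 6 lower in ΔTAD. Ccl2, a monocyte chemokine, fell from 34.7 CPM to 0.726 and 0.474 CPM, and Ptgs2, which makes prostaglandin precursors, from 21.1 CPM to 0.986 and 0.365 CPM, while Ptger4, a receptor for prostaglandin E, was among the gained genes. Of 8 tested osteoclast genes, 5 were higher and 1 lower in each edited genotype; Ctsk, the collagen-cleaving cathepsin K, averaged 56.2 CPM in wild-type, 103.3 CPM in the knock-out and 1544 CPM in ΔTAD. Of 14 p53 and stress genes, 7 were higher and 6 lower in the knock-out and 5 higher and 2 lower in ΔTAD.

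Markers of several other cell types were low. Summed over a list, mast cell and basophil genes took at most 0.959 CPM in a library, erythroid and megakaryocyte genes 1.90 CPM, fibroblast and matrix genes 1.94 CPM, neuronal genes 2.54 CPM, neutrophil and granule genes 13.4 CPM and T and NK cell genes 15.8 CPM. B cell genes took 19.5 to 20.8 CPM in wild-type and 34.0 to 50.6 CPM in the edited libraries, with no count of Ms4a1 in any. Most of this was Blnk, an adaptor of B cell receptor signalling that averaged 18.9, 37.4 and 47.4 CPM, while Ighm, an immunoglobulin heavy chain, fell from 1.06 CPM to 0.0201 CPM in the knock-out and 0.245 CPM in ΔTAD. Endothelial genes took 9.94 to 12.4 CPM in wild-type, 40.1 to 41.6 CPM in the knock-out and 21.3 to 22.6 CPM in ΔTAD, of which Vwf averaged 5.45, 37.9 and 17.8 CPM. Pecam1 and Kdr were called lower in both edited genotypes, Pecam1 averaging 2.29, 0.580 and 0.165 CPM and Kdr 0.850, 0.129 and 0.0233 CPM. Dendritic cell genes took 80.6 to 90.7 CPM in all libraries. Of the 5 tested, 1 was called higher and 2 lower in each edited genotype, among the latter Itgax, which averaged 15.2, 6.91 and 5.75 CPM. Of 4 tested imprinted genes, 1 was higher and 2 lower in the knock-out and 1 higher and 1 lower in ΔTAD, and both tested germline genes were lower in each edited genotype.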
